A study of Mus musculus with 8 samples.

Results

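The BCL2 family genes that decide between survival and apoptosis were followed in primary mouse microglia, the resident immune cells of the brain, after 24 h with lipopolysaccharide (LPS). The 10 genes were picked by name and found by Ensembl identifier among the 52636 genes of the count table. They are 6 anti-apoptotic genes (Mcl1, Bcl2l1, Bcl2, Bcl2a1a, Bcl2a1b and Bcl2a1d), the 2 pore-forming effectors Bax and Bak1, and the 2 BH3-only genes Bcl2l11 and Bbc3. Microglia of mice labelled C57BL/6 (the methods of the study list C57BL/6N pups), genotype WT, were kept in DMEM that held 10% FBS and CSF-1 at 10 ng/ml, and received either vehicle or 5 µg/ml LPS, a bacterial cell wall component that activates Toll-like receptor signalling. Per the methods of the study, such cells were shaken off mixed glial cultures of neonatal brains. Each group held 4 libraries labelled as biological replicates, with 20071921 to 30604447 counts per library. The labels do not say whether the replicates came from separate cultures, so the p-values measure the spread between these libraries.

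Apoptosis through mitochondria starts when Bax and Bak1 form pores in the outer mitochondrial membrane and cytochrome c leaks out. The anti-apoptotic proteins hold Bax, Bak1 and the BH3-only proteins in check by binding them. BH3-only proteins such as Bim, encoded by Bcl2l11, and Puma, encoded by Bbc3, are the sensors: growth factor loss, DNA damage and other stresses raise them, and they then block the anti-apoptotic proteins or activate the effectors. In macrophages and microglia, CSF-1 is a survival factor, and the A1 proteins encoded by the Bcl2a1 genes are known as family members that NF-kB signalling induces. Much of the control in this family acts on the proteins, which were not measured in these libraries.

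The mouse Bcl2a1 genes are near-identical copies on chromosome 9, and what could be counted of each depends on the few bases at which they differ. Over their 516 coding bases, Bcl2a1a and Bcl2a1b were 97.9% identical, Bcl2a1a and Bcl2a1d 98.6%, and Bcl2a1b and Bcl2a1d 98.8%. They differed at 12 coding positions, and 7 of these lie in the first 100 coding bases in exon 1. This stretch is shown for each copy, 5′ to 3′, from the GENCODE vM21 transcripts (GRCm38), with capitals at the positions where the copies differ. It covers chr9:88957051-88957150 on the plus strand for Bcl2a1a, chr9:89199360-89199459 on the plus strand for Bcl2a1b and chr9:88731620-88731719 on the minus strand for Bcl2a1d.
Bcl2a1a: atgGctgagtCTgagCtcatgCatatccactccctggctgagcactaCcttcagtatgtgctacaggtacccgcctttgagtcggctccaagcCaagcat
Bcl2a1b: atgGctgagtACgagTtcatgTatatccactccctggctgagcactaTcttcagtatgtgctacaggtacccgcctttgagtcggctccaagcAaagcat
Bcl2a1d: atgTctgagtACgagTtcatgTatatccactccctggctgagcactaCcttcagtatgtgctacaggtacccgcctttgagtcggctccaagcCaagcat
The longest run with no difference among the copies was 217 coding bases. Reads were 50 bases long and only uniquely aligned reads were counted. Of all windows of 50 bases along each transcript, 69.0% of Bcl2a1a, 79.2% of Bcl2a1b and 79.5% of Bcl2a1d occurred in another gene's transcript as well. The remaining windows, 239 for Bcl2a1a, 160 for Bcl2a1b and 167 for Bcl2a1d, occurred in no other gene's transcript. Windows of Bcl2a1b that it shares only with Gm29094, a gene model annotated over part of the same bases, count as shared here. Reads from such windows could still align uniquely, so 160 may be too low for Bcl2a1b.

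**Figure D1:**
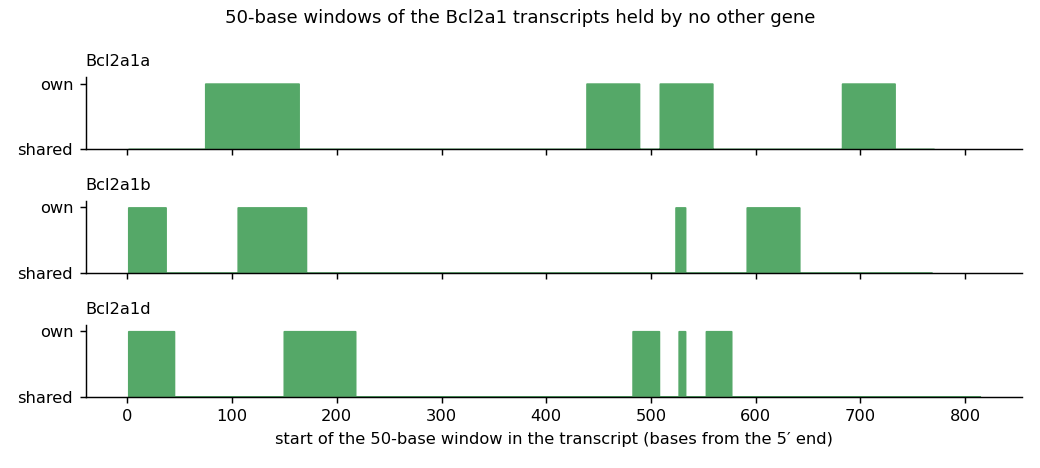
Windows of 50 bases along the Bcl2a1a, Bcl2a1b and Bcl2a1d transcripts, by start position in bases from the 5′ end; green marks windows found in no other gene's transcript. The own windows form separate blocks, 239 in Bcl2a1a, 160 in Bcl2a1b and 167 in Bcl2a1d. The rest of each transcript is shared with another gene or gene model, which for Bcl2a1b includes the overlapping Gm29094.

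Both BH3-only members are known targets of FOXO factors, and their transcripts fell together after LPS. The part of the RefSeq promoter window (GRCm38.p6) that lies before the start site is therefore shown for the 1 Bcl2l11 start and the 1 Bbc3 start at which the FOXO letters GTAAACA occurred on either strand. Capitals mark the match. The Bcl2l11 stretch is chr2:128125788-128126037 and the Bbc3 stretch, which lies before an internal start of the gene, is chr7:16310011-16310260, both on the plus strand.
Bcl2l11: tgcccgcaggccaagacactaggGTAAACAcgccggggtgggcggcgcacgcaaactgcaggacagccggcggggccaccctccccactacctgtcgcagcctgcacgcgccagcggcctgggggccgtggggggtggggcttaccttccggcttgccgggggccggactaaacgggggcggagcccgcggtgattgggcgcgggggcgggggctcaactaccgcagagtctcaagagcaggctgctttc
Bbc3: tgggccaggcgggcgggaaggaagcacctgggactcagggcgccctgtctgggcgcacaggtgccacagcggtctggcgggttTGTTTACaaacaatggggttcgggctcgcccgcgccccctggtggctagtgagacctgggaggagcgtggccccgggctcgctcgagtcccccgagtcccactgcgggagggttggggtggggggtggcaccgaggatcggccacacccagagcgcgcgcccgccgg
In Bbc3 the match is on the opposite strand and reads TGTTTAC. All 10 genes had a window, 15 in total over their start sites, and no other member window held these letters, which occur in 3.65% of all 32851 RefSeq promoter windows of 300 bases. Nor did any of the 3 windows of Bmf, the other BH3-only gene that fell. The letters GAGGAAGT, a PU.1 motif, occurred in the windows of Bcl2a1a, Bcl2a1b, Bcl2a1d and Bak1 and in 3.20% of all windows. The Bcl2a1 genes are near-identical copies, so their matches cannot be counted as separate. The AP-1 letters TGACTCA (5.20% of all windows) and the STAT letters TTCNNNGAA (8.30%) occurred in no member window. Both strands were searched, no letter string contains another, and the strings were chosen after matches had been looked at. A match describes the letters in the window and is no evidence of binding.

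LPS moved the members in both directions. Bcl2l1, Bcl2a1a and Bak1 rose, and Bcl2l11, Bbc3, Bcl2 and Bax fell. Mcl1 and Bcl2a1b did not pass the test, and Bcl2a1d had too few counts to be tested. Levels are given as CPM, counts scaled to a common library size after the TMM method of edgeR, and changes as log2 fold changes of LPS against vehicle from the quasi-likelihood test of edgeR, with p-values adjusted over all 13847 tested genes and a threshold of 0.05. Most genes changed in these cells: 64.1% of the tested genes passed the test, 30.3% with a rise and 33.8% with a fall, against 3 rises and 4 falls among the 9 tested members. The groups did not overlap in 6 of the 10 members, against 60.2% of the tested genes. These shares are close to those of all genes, so the number of changed members does not set the family apart. Library totals without TMM scaling would have divided the calls over all genes into 1988 rises and 8457 falls instead of 4191 and 4686. RNA of whole cultures was sequenced, so fewer cells of a type and less RNA per cell cannot be told apart.

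**Figure D2:**
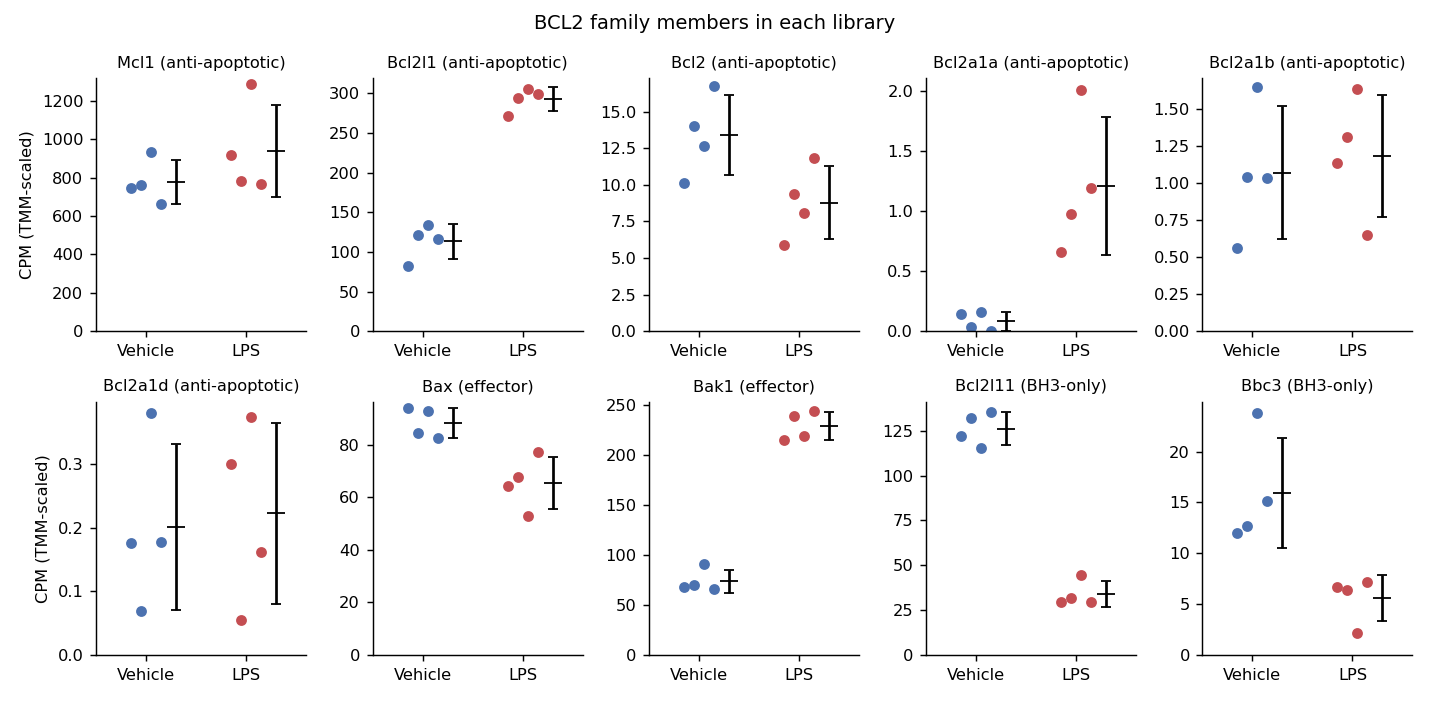
CPM (TMM-scaled) of the 10 members in each of the 4 Vehicle (blue) and 4 LPS (red) libraries, with the mean and SD of each group in black and a separate linear axis from 0 for each gene. The groups are apart for Bcl2l1, Bcl2a1a, Bak1, Bcl2l11, Bbc3 and Bax and overlap for Mcl1, Bcl2, Bcl2a1b and Bcl2a1d.

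Among the anti-apoptotic genes, Bcl2l1 showed the clearest rise. Bcl2l1 (ENSMUSG00000007659, chr2:152780668-152831728, minus strand) encodes Bcl-xL, which binds Bax, Bak1 and Bim. It was at 82.6, 121, 133 and 116 CPM in vehicle replicates 1 to 4 and at 271, 295, 306 and 299 CPM in LPS replicates 1 to 4. Each LPS library lay above each vehicle library by more than the spread within a group. The log2 fold change was 1.37 (SE 0.15, edgeR adjusted p = 3.58e-05), a 2.58-fold rise of the fitted level. None of its 50-base windows was shared with another gene.

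Mcl1 (ENSMUSG00000038612, chr3:95658788-95663176, plus strand) encodes a short-lived anti-apoptotic protein that many myeloid cells need. It was at 744, 762, 933 and 660 CPM in the vehicle libraries and at 920, 784, 1285 and 767 CPM in the LPS libraries. The groups overlapped, and the libraries numbered 3 held the highest value of each group. The log2 fold change of 0.28 (SE 0.19) did not pass the test of edgeR (adjusted p = 0.227), and with library totals in place of TMM its sign turned (-0.41, adjusted p = 0.0276). Within each same-numbered pair the LPS library was the higher one, by 0.04 to 0.46 on the log2 scale.

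Bcl2 (ENSMUSG00000057329, chr1:106538178-106714274, minus strand), the founding anti-apoptotic gene of the family, fell. Its CPM was 10.2, 14.0, 12.7 and 16.7 in the vehicle libraries and 5.86, 9.37, 8.07 and 11.8 in the LPS libraries. The highest LPS library lay above the lowest vehicle library, and in all 4 same-numbered pairs the LPS library was the lower one, by 0.49 to 0.78 on the log2 scale. The log2 fold change was -0.61 (SE 0.23, edgeR adjusted p = 0.0392). With the replicate number as a block it was -0.63 (edgeR adjusted p = 0.00478). Without the block the call was lost when any 1 of vehicle replicates 2, 3 and 4 or LPS replicates 1, 2 and 3 was left out, with values over all leave-outs between -0.78 and -0.45 and adjusted p between 0.0163 and 0.129.

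The Bcl2a1 genes, which encode A1, were counted at very low numbers. Bcl2a1a (ENSMUSG00000102037, chr9:88956900-88962419, plus strand) had 4, 1, 5 and 0 counts in the vehicle libraries and 11, 18, 43 and 22 counts in the LPS libraries. Every LPS library exceeded every vehicle library, and a library at 0 counts allows an expected count of up to 3, a limit that covers counting error only. The CPM was 0.0833 ± 0.0779 (SD, n = 4) with vehicle and 1.21 ± 0.575 (SD, n = 4) with LPS, and the log2 fold change was 3.77 (SE 0.66, edgeR adjusted p = 7.49e-04).

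Bcl2a1b (ENSMUSG00000089929, chr9:89199209-89207827, plus strand) had 16, 30, 52 and 29 counts with vehicle and 19, 24, 35 and 12 counts with LPS. Its groups overlapped in CPM, with means of 1.07 ± 0.447 and 1.18 ± 0.410 (SD, n = 4 each). The log2 fold change of 0.14 (SE 0.40, edgeR adjusted p = 0.763) changed sign with upper quartile scaling and with library totals. Of its exonic bases, 49.1% are also annotated to the gene model Gm29094 on the same strand, which had no counts. Bcl2a1d (ENSMUSG00000099974, chr9:88723285-88731914, minus strand) had 5, 2, 12 and 5 counts with vehicle and 5, 1, 8 and 3 with LPS, under the filter for testing.

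Since reads from shared windows of the copies could not be assigned, the counts of the 3 genes were also added up. The sum was 25, 33, 69 and 34 counts with vehicle and 35, 43, 86 and 37 counts with LPS. The groups overlapped in CPM, and the log2 fold change was 0.95 (SE 0.36, edgeR adjusted p = 0.0406). The call was lost with upper quartile scaling (0.78, adjusted p = 0.0677), with library totals (0.25, adjusted p = 0.491) and with no filter on low counts (0.91, adjusted p = 0.0615). Leaving out 1 library at a time gave 0.66 to 1.33, with adjusted p from 0.00611 to 0.112, and the call was lost without vehicle replicate 1, 2 or 4 or LPS replicate 2 or 3. Bcl2a1a made up 10 of 161 summed counts (6.21%) with vehicle and 94 of 201 (46.8%) with LPS. How reads of the shared windows divided among the copies was not tested.

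The effectors moved in opposite directions. Bak1 (ENSMUSG00000057789, chr17:27019810-27029009, minus strand), which encodes the effector that sits in the mitochondrial membrane also in healthy cells, was at 67.8, 69.5, 90.7 and 65.7 CPM with vehicle and at 215, 239, 218 and 243 CPM with LPS. Every LPS library was at more than 2 times the level of the highest vehicle library. Bak1 rose by 1.64 on the log2 scale (SE 0.13, edgeR adjusted p = 4.36e-06), or 3.12-fold. Of its exonic bases, 25.5% overlap Ggnbp1 on the opposite strand, and whether the counting used the strand of the reads is not given in the sources used here.

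Bax (ENSMUSG00000003873, chr7:45461697-45466898, minus strand), the effector that is mostly cytosolic until it is activated, was at 93.8, 84.4, 92.8 and 82.6 CPM with vehicle and at 64.2, 67.6, 52.9 and 77.1 CPM with LPS. The groups did not overlap, but the highest LPS library came close to the lowest vehicle library. Bax fell by 0.43 on the log2 scale (SE 0.12, edgeR adjusted p = 0.0108). It missed the threshold without vehicle replicate 1 (adjusted p = 0.0605), without vehicle replicate 3 (0.0666) and without both libraries numbered 3 (0.0589). The Bax windows were 8.51% shared, with the gene model Gm45808, which had no counts.

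Both BH3-only members fell. Bcl2l11 (ENSMUSG00000027381, chr2:128126038-128162547, plus strand) encodes Bim, which binds all anti-apoptotic family proteins. It was at 122, 132, 115 and 136 CPM with vehicle and at 29.6, 32.0, 44.5 and 29.4 CPM with LPS. The groups were far apart, with LPS replicate 3 above the other LPS libraries. The log2 fold change was -1.90 (SE 0.15, edgeR adjusted p = 4.63e-06), a level 3.72 times lower with LPS, and it stayed between -2.05 and -1.82 when each library was left out in turn.

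Bbc3 (ENSMUSG00000002083, chr7:16308393-16318205, plus strand) encodes Puma, a p53 target. It was at 12.04, 12.7, 23.8 and 15.1 CPM with vehicle and at 6.64, 6.37, 2.19 and 7.14 CPM with LPS. No LPS library reached the lowest vehicle library, and the libraries numbered 3 were the extremes of both groups. Bbc3 fell by 1.52 on the log2 scale (SE 0.36, edgeR adjusted p = 0.00428). Without both libraries numbered 3 it was -0.90 and still passed the test (edgeR adjusted p = 7.69e-04).

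Levels of different genes were compared per kb of the longest transcript. With vehicle, Mcl1 was the most abundant member at 227 ± 33.5 CPM per kb (SD, n = 4), followed by Bax at 80.4 ± 5.19, Bcl2l1 at 44.1 ± 8.47, Bak1 at 30.8 ± 4.87, Bcl2l11 at 25.1 ± 1.86, Bbc3 at 8.77 ± 2.99 and Bcl2 at 1.86 ± 0.381 CPM per kb. Bcl2l1 and Bak1 overlapped in their vehicle libraries, as did Bcl2 and Bcl2a1b and, at the lowest levels, Bcl2a1d and Bcl2a1a. With LPS, Mcl1 remained first at 275 ± 70.3 CPM per kb, and Bcl2l1 at 114 ± 5.78 and Bak1 at 95.9 ± 5.95 stood above Bax at 59.5 ± 9.08. The order depends on the length used. All annotated exonic bases of Bcl2l1 come to 4586, against 2568 for its longest transcript. For Bak1 they come to 2407 against 2387. Per kb of all exonic bases, the mean of Bcl2l1 lies below that of Bak1 in both groups. Bcl2l11 had come down to 6.73 ± 1.43 CPM per kb and Bbc3 to 3.08 ± 1.26. The LPS libraries of Bbc3, Bcl2a1a, Bcl2a1b and Bcl2 overlapped from neighbour to neighbour.

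The Bcl2a1 levels per kb depend on the length that is used. Per kb of the full transcript, Bcl2a1a was at 0.102 CPM with vehicle and 1.48 CPM with LPS, and Bcl2a1b at 1.31 and 1.45 CPM. Per kb of their own windows, Bcl2a1a was at 0.349 and 5.06 CPM, Bcl2a1b at 6.68 and 7.38 CPM and Bcl2a1d at 1.20 and 1.33 CPM. On either length, Bcl2a1b had a higher mean than Bcl2a1a with vehicle. With LPS, Bcl2a1a was the higher of the 2 per kb of transcript and the lower per kb of own windows. The own windows of Bcl2a1b leave out those it shares only with the overlapping gene model Gm29094. Its values per kb of own windows may therefore be too high, and the order of the 2 with LPS is not settled.

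Among the 6 anti-apoptotic members, Bcl2l1 took a larger part of the transcripts after LPS. The mean level of Mcl1 itself was not lower with TMM scaling, but its fold change turned to a fall with library totals. Bcl2l2, which encodes a further anti-apoptotic protein, is not part of these shares. Of the summed CPM per kb of the 6 anti-apoptotic genes, Mcl1 held 82.6 ± 2.75% with vehicle and 69.3 ± 4.69% with LPS (SD, n = 4 each). Bcl2l1 held 12.8% to 18.7% in the vehicle libraries and 23.8% to 33.7% in the LPS libraries, so the groups did not overlap. On these full transcript lengths, each of the other 4 genes held under 1% in every library. Per kb of own windows the Bcl2a1 levels are higher, so their shares would be larger. The shares were not tested, since they follow from the levels above.

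**Figure D3:**
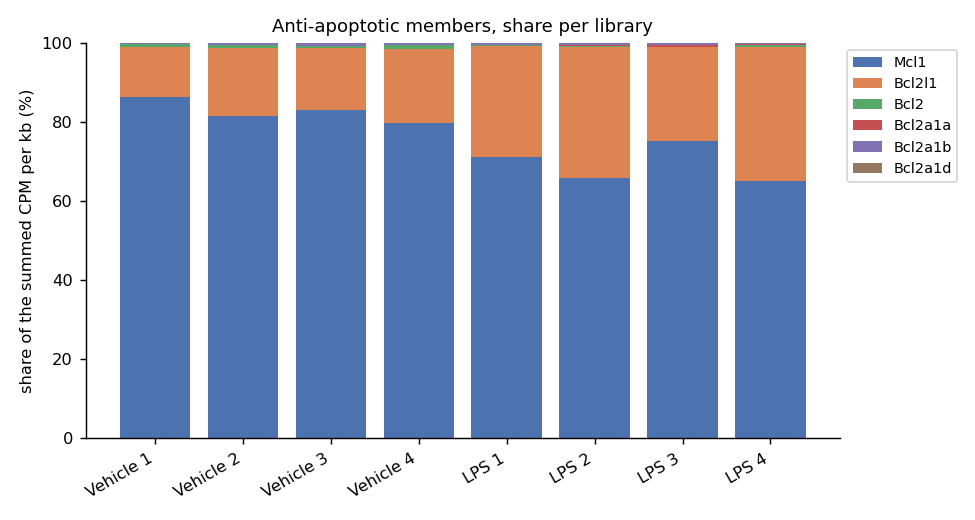
Share (%) of each anti-apoptotic gene in their summed CPM per kb, as stacked bars for the 8 libraries. The Bcl2l1 share is 12.8% to 18.7% in the 4 Vehicle libraries and 23.8% to 33.7% in the 4 LPS libraries, and Mcl1 takes most of the rest.

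The rest of the BCL2 family, 16 further genes, had 11 members that could be tested, of which 3 rose, 1 fell and 7 did not pass the test (edgeR), against 30.3% rises and 33.8% falls over all tested genes. With library totals in place of TMM the balance turned, with 2 rises and 5 falls. Bmf, a BH3-only gene whose protein responds to loss of attachment, had the deepest fall of the family. Its CPM was 68.1, 48.9, 56.0 and 45.4 with vehicle and 4.07, 1.31, 1.63 and 2.11 with LPS, a log2 fold change of -4.60 (SE 0.32, edgeR adjusted p = 2.23e-06). No LPS library came near a vehicle library. Only 1.42% of all tested genes, Bmf included, had a log2 fold change as low.

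The risers were of different roles. Bcl2l2, which encodes the anti-apoptotic Bcl-w, rose by 0.93 on the log2 scale (SE 0.10, edgeR adjusted p = 3.66e-05), with no overlap between 26.3 to 33.2 CPM for vehicle and 52.0 to 60.0 CPM for LPS. Bad, a BH3-only gene of growth factor signalling, rose by 0.75 (SE 0.22, edgeR adjusted p = 0.0123), but its LPS replicate 3 lay within the vehicle range and 20.5% of its exonic bases overlap Gpr137 on the opposite strand. With library totals the Bad change was 0.0995 (edgeR adjusted p = 0.715). Bnip3, a hypoxia-responsive gene of mitophagy, rose from 0.164 to 5.08 CPM (log2 fold change 4.92, SE 0.49, edgeR adjusted p = 1.98e-05), and 47.2% of its windows are shared with other gene models. It had only 9, 3, 3 and 4 counts in the vehicle libraries, which limits the precision of this fold change.

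The other tested genes of the rest of the family, BH3-only and not, did not pass the test. Bid, which links death receptors to mitochondria, had a log2 fold change of 0.43 (SE 0.24, edgeR adjusted p = 0.145), and passed it with the replicate number as a block (0.38, adjusted p = 0.0417) and without LPS replicate 1 (0.60, adjusted p = 0.0404). Pmaip1, which encodes Noxa, a partner of Mcl1, was at 30.8 ± 5.08 CPM with vehicle and 25.6 ± 14.7 CPM with LPS (SD, n = 4 each, edgeR adjusted p = 0.537). Bcl2a1c, a more distant A1 copy, had a log2 fold change of 1.07 (SE 0.44, edgeR adjusted p = 0.0549). It had 10, 11, 14 and 22 counts with vehicle and 15, 10, 38 and 16 with LPS. Leaving out 1 library at a time gave 0.65 to 1.39, with edgeR adjusted p from 0.0290 to 0.178. Bik, Bcl2l12, Bcl2l13 and Bnip3l had log2 fold changes between -0.40 and 0.17. Bcl2l10, Bok, Hrk, Bcl2l14 and Bcl2l15 had too few counts to be tested.

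**Figure D4:**
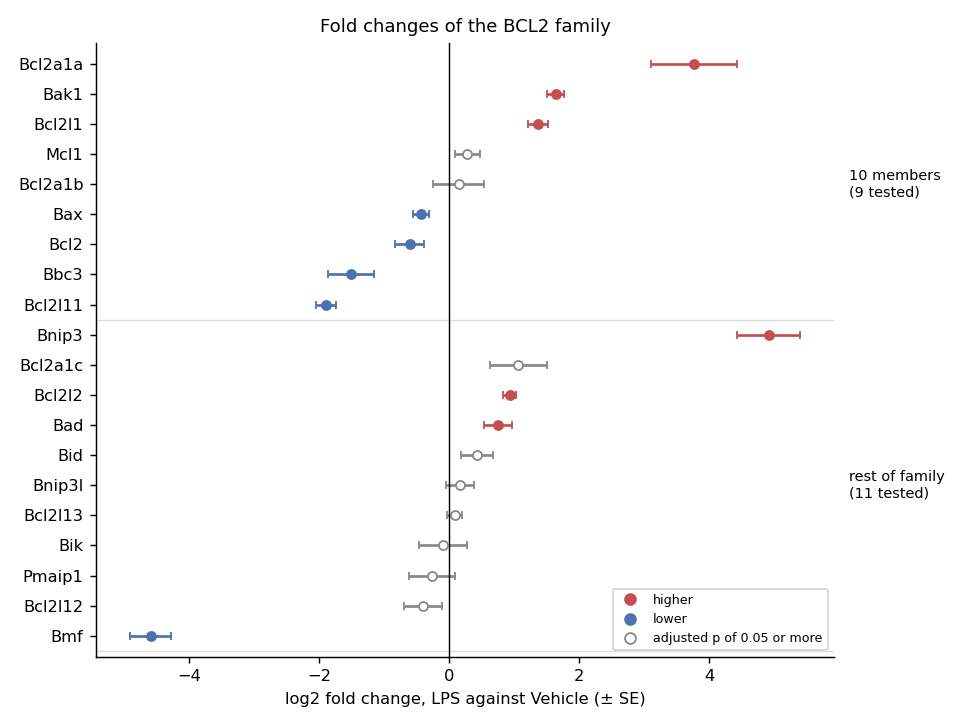
Log2 fold change of LPS against Vehicle (± SE, edgeR) for the 9 tested members and the 11 tested genes of the rest of the family; filled points passed the adjusted p threshold of 0.05. The values run from -4.60 for Bmf to 4.92 for Bnip3, with Bcl2a1a, Bak1 and Bcl2l1 the members that rose.

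The genes that act below and beside the family, a list of 34, had 17 rises and 10 falls among 33 tested genes, with a median log2 fold change of 0.48 against -0.11 over all tested genes, of which 30.3% rose and 33.8% fell. With library totals in place of TMM the balance of the list turned, with 10 rises and 14 falls. In the apoptosome and caspase group, 5 of 11 genes rose and 3 fell, against 2 and 4 with library totals in place of TMM. Apaf1, the scaffold that cytochrome c activates, rose by 1.45 on the log2 scale (SE 0.16, edgeR adjusted p = 4.29e-05). Htra2, a mitochondrial protease that opposes IAP proteins once released, fell by 0.84 (edgeR adjusted p = 6.11e-04), and Aifm1, which encodes apoptosis-inducing factor, fell by 0.51 (edgeR adjusted p = 0.00537). Of the exonic bases of Htra2, 43.7% overlap Aup1 and Loxl3 on the opposite strand, and strand use in counting is not given.

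The inhibitor of apoptosis (IAP) group had 6 rises, no fall and 1 gene that missed the test among 7 tested genes with TMM scaling, against 30.3% rises over all tested genes. There were 5 rises with the replicate block, 4 with upper quartile scaling, and 3 rises and 1 fall, that of Xiap, with library totals, which turned the sign of Birc2, Naip5 and Naip6. Birc3, which encodes cIAP2 and is an NF-kB target, rose by 2.36 on the log2 scale (SE 0.21, edgeR adjusted p = 1.15e-05), and Naip2, better known as a sensor of bacterial proteins than as a caspase inhibitor, rose by 1.48 (SE 0.14, edgeR adjusted p = 1.58e-05). Naip2, Naip5 and Naip6, which make up 3 of the 6 rises, are close copies of each other, and how uniquely aligned reads divide among them was not tested. Xiap, the most direct caspase inhibitor, had a log2 fold change of 0.19 (SE 0.11, edgeR adjusted p = 0.157).

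The p53 and FOXO group moved both ways, with 4 rises and 5 falls among 9 genes (3 and 5 with library totals). Trp53 itself fell by 1.37 on the log2 scale (SE 0.13, edgeR adjusted p = 1.56e-05). The p53 targets diverged: Cdkn1a, the inhibitor of cyclin-dependent kinases, rose by 1.94 (SE 0.20, edgeR adjusted p = 2.91e-05) and Mdm2, which degrades p53, by 1.90 (SE 0.30, edgeR adjusted p = 3.79e-04), while Trp53inp1 fell by 2.44 (SE 0.33, edgeR adjusted p = 1.32e-04) and Zmat3 fell by 1.47 (SE 0.12, edgeR adjusted p = 5.51e-06). Foxo1 fell by 0.57 (edgeR adjusted p = 0.0320) and Foxo3 by 0.49 (edgeR adjusted p = 0.00329). For Foxo1, LPS replicate 3 at 16.7 CPM lay within the vehicle range of 16.4 to 17.2 CPM.

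Of 6 genes for mitochondrial VDAC channels and for the turnover of the Mcl1 protein, 2 rose and 2 fell, and with library totals 4 fell. Vdac3 and Vdac1 rose by 1.03 and 1.01 on the log2 scale, with edgeR adjusted p of 1.30e-04 and 1.05e-04. Vdac2, whose protein holds Bak1 and Bax at the mitochondrion, fell by 0.34 (SE 0.09, edgeR adjusted p = 0.00791). Huwe1, a ubiquitin ligase for Mcl1, fell by 0.49 (SE 0.11, edgeR adjusted p = 0.00368), while Fbxw7, another Mcl1 ligase, and Usp9x, which removes ubiquitin from Mcl1, did not pass the test (edgeR adjusted p of 0.180 and 0.706).

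**Figure D5:**
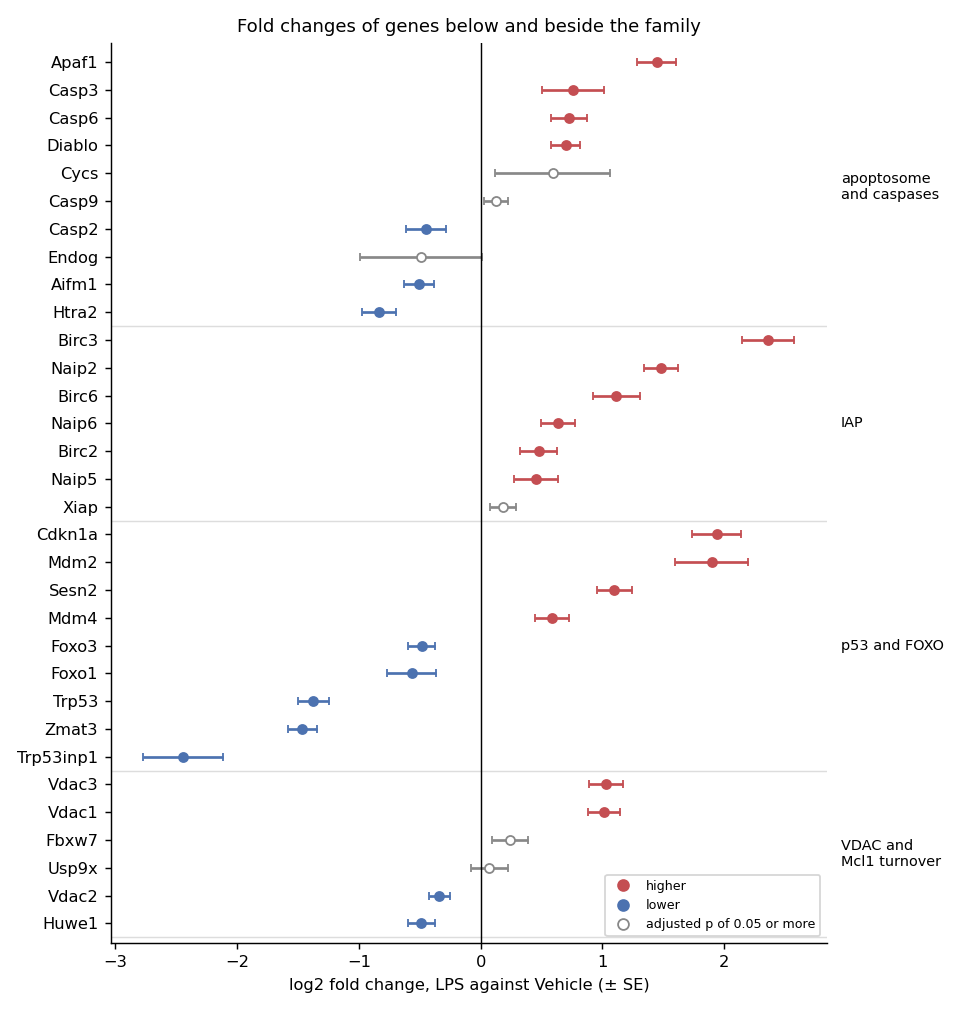
Log2 fold change of LPS against Vehicle (± SE, edgeR) for the tested genes of 4 lists that act below or beside the family, with 1 of the 33 not shown; filled points passed the adjusted p threshold of 0.05. With TMM scaling the IAP list has 6 filled points on the side of a rise and none on the side of a fall (3 and 1 with library totals), and the p53 and FOXO list is divided into 4 rises and 5 falls.

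Genes that behaved most like the members at the ends of the range were sought among 8003 well-counted genes by the root mean square difference of centred log2 CPM over the 8 libraries. The pattern of Bcl2a1a was nearest to those of Mcoln2, Cflar and Rnf19b, at distances of 0.348, 0.354 and 0.357. Their log2 fold changes were 2.66, 2.92 and 2.83 against 3.77 for Bcl2a1a. The log2 CPM values hold a small added count, which damps the pattern of a gene counted as rarely as Bcl2a1a. The pattern of Bcl2l11 was nearest to those of Mdh1, Decr1 and Uprt, at 0.0864, 0.0887 and 0.0962, with log2 fold changes of -1.78, -1.82 and -1.85 against -1.90 for Bcl2l11. The match for Bcl2a1a was looser than that for Bcl2l11, and all of these distances rest on the same group difference.

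The LPS libraries carried the response of activated microglia. Of the 5 response genes checked, Tnf rose least (log2 fold change 4.33) and Nos2 most (13.4), with Il1b at 6.38, Il6 at 11.97 and Ptgs2 at 10.7, and all passed the test of edgeR. The summed CPM of 11 microglial markers was 8718 to 9226 with vehicle and 3290 to 3751 with LPS, with 7 markers lower and 2 higher. Markers of other cells also moved with the groups. Oligodendrocyte lineage markers summed to 92.9 to 146 CPM with vehicle and 17.6 to 23.5 CPM with LPS (4 of 6 tested lower), neuronal markers to 7.29 to 21.2 and 2.75 to 10.3 CPM (3 of 5 lower), and astrocyte markers to 19.98 to 45.8 and 40.6 to 123 CPM (3 of 7 lower, and Gja1 higher). Fibroblast and endothelial markers summed to 1.81 to 7.49 and 43.0 to 95.8 CPM, with Dcn, Pecam1 and Cdh5 higher and Cldn5 at 0 counts in every library. The collagen genes Col1a1, Col1a2 and Col3a1 of this list had too few counts to be tested and went the other way. Their counts over all vehicle libraries were 65, 48 and 35, against 7, 2 and 2 over all LPS libraries. Lymphocyte markers summed to at most 1.20 CPM and neutrophil markers to at most 2.99 CPM in any library, and 4 of 6 and 5 of 6 of them had no more than 3 counts in every library. Their part in the changes of the members was not tested.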

How the data were processed

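For 4 vehicle and 4 LPS libraries, RNA was sequenced as single-end reads of 50 bases. The authors aligned reads to GRCm38 with GSNAP and, through HTSeqGenie, deposited the raw counts of uniquely aligned reads per Ensembl gene, with no normalization. Library kit and sequencer differ between the labels (TruSeq Stranded, NovaSeq) and the paper (TruSeq RNA, HiSeq). Strand use in counting and the annotation release are not given in the sources used here. GENCODE vM21 gave symbols for 52489 of 52636 identifiers, and the other 147 held 0.00512% of the counts. No libraries were identical, and LPS replicates 2 and 4, the closest pair, had a chi-square of 6.98 for each degree of freedom.

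For the test on counts, edgeR 4.0.16 in R 4.3.3 was used with its quasi-likelihood fit (TMM, filterByExpr at its minimum count of 10 and total of 15, two-sided, Benjamini-Hochberg over all tested genes). TMM factors were 1.21 to 1.32 for vehicle and 0.701 to 0.833 for LPS. DESeq2 1.42.0 was an alternative, beside other scalings, filters and thresholds, a replicate block and leaving out each library. Fitting was tested on simulated data in which a small set of known genes was changed, with rises and falls drawn alike. That setting does not probe the choice of scaling where most genes change, as they did here. Tables and figures were made in Python 3.11.15 with pandas 2.3.3 and matplotlib 3.10.9.

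Named genes are all 10 members, every testable gene of the rest of the family, up to 2 called rises and 2 called falls of largest size in each of the 4 lists below the family, the 5 response genes, and the 3 genes most like the called members with the largest rise and fall. Other genes named (Trp53, Foxo1, Foxo3, Mdm4, Cycs, Casp9, Xiap, Birc2, Naip5, Naip6, Fbxw7, Usp9x and single cell type markers) were chosen after their values had been seen. A gene that this rule also named is not reported here. Members and lists were chosen with earlier results of these data known. Vehicle and LPS libraries of the same number deviated together from their group means (r of 0.373, 0.196, 0.171 and 0.108 over 8010 genes). All lie above the limit of 0.1, as do vehicle 2 with LPS 4 (0.146) and vehicle 4 with LPS 2 (0.137), so the pairing of these is less sure. By the limit, the numbers count as pairs. The main fit held the group only and did not use the pairs, and the block was run as an alternative.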

Additional observations from a re-analysis of the deposited data

Results flagged for a closer look

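In 3 groups of 4 libraries, 1 library lay apart from the other 3 by more than the Dixon limit for 4 values, out of 20 groups examined, and chance flags about 1 in 20. Bcl2l11 was at 44.5 CPM in LPS replicate 3, against 29.4 to 32.0 CPM in the other LPS libraries. Without that library its log2 fold change was -2.05 (edgeR adjusted p = 8.20e-07). Bak1 was at 90.7 CPM in vehicle replicate 3, against 65.7 to 69.5 CPM in the other vehicle libraries. Without that library its log2 fold change was 1.82 (edgeR adjusted p = 4.02e-06). Bbc3 was at 2.19 CPM in LPS replicate 3, against 6.37 to 7.14 CPM in the other LPS libraries. Without that library its log2 fold change was -1.24 (edgeR adjusted p = 0.00244). The libraries are both numbered 3 and are the deepest of their groups, with 26129375 counts for vehicle replicate 3 and 30604447 for LPS replicate 3.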

How the results depend on the processing

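The rises of Bcl2l1 and Bak1 and the falls of Bcl2l11 and Bbc3 kept their direction and their call under every scaling, filter, block and leave-out tried, as did that of Bcl2a1a wherever it could be tested (requiring 10 counts in every library removed it). The replicate block changed no member's call. Members called lower numbered 2 instead of 4 without both libraries numbered 3 (an alternative added after seeing the data), at an adjusted p of 0.01 and with a log2 fold change of at least 1 in size, and 2 to 4 when 1 library was left out. The summed Bcl2a1 counts changed by 0.78 with upper quartile scaling (adjusted p = 0.0677), 0.25 with library totals (0.491), 0.91 with no filter (0.0615), 0.66 to 1.33 when 1 library was left out, and by 0.95 missed a threshold of 0.01. Library totals shifted the median of all genes by -0.68, upper quartile scaling by -0.16 and no filter by -0.19. With totals, calls over all genes were 1988 higher and 8457 lower, 2 other family genes were higher and 5 lower, and 10 downstream genes were higher and 14 lower. With a log2 change of at least 1 they were 2224 and 2998, with 1 other family gene higher, and 10 downstream genes higher and 3 lower. With exonic union lengths the Mcl1 share was 89.0% with vehicle and 79.7% with LPS. Of the called genes, Birc2 (-0.22), Naip5 (-0.25), Naip6 (-0.06) and Mdm4 (-0.11) turned sign with totals. The other signs that turned were of genes that had not passed the test. In the family, with totals these were Mcl1 (-0.41), Bcl2a1b (-0.54), Bid (-0.27), Bcl2l13 (-0.60) and Bnip3l (-0.53), and with upper quartile scaling Bcl2a1b (-0.017) and Bcl2l13 (-0.072). In the downstream lists they were Xiap, Fbxw7, Cycs, Casp9 and Usp9x with totals, the last 2 also with upper quartile scaling. Without both libraries numbered 3 they were, in the family, Bik (0.19), Bcl2l12 (6.58e-04) and Bnip3l (-0.024). Leaving out 1 library gave -0.052 to 0.49 for Bcl2a1b, -0.41 to 0.15 for Bik, -0.69 to 0.0068 for Pmaip1 and -0.10 to 0.32 for Bnip3l. The cause of these changes was not tested. The Bcl2a1 members had 0 to 52 counts per library, which limits the precision of their values.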
